A study of Danio rerio with 4 samples.

Results

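The mitosis genes described here were 36 genes of the 36351 in the feature list of every library, found by their symbols, which each occurred once. They were cdk1, ccna2, ccnb1, aurka, plk1, ttk, bub1, cdc20, ube2c, bub3, aurkb, birc5a, cenpe, cenpf, ndc80, nuf2, tpx2, hmmr, nusap1, aspm, tacc3, kpna2, kif11, kif2c, kif20a, kif23, prc1a, prc1b, racgap1, ect2, anln, top2a, smc2, smc4, ncapg and mki67. Cyclin-dependent kinase 1 with its cyclins drives a cell into mitosis, where condensins compact the chromosomes, motors and spindle proteins build the spindle and the kinetochores attach the chromosomes to it. The spindle checkpoint holds the anaphase promoting complex in check until every chromosome is attached, after which the chromosomes part, and the spindle midzone and an actomyosin ring divide the cell. Many of these transcripts accumulate in G2 and mitosis and are low or absent in cells that do not divide, so that their summed level in a population reflects both how many of its cells divide and how much RNA each such cell holds, which cannot be told apart in a sum. In the embryonic trunk, endothelial cells, the nascent haematopoietic stem and progenitor cells (nHSPCs) that emerge from the dorsal aorta and circulating primitive blood cells all divide.

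The libraries were made with 10x Genomics 3′ chemistry from GFP-positive cells sorted from dissected zebrafish trunks of the Tg(kdrl:GFP) zn1 line at 26 hours post fertilisation (hpf), in which the promoter of the endothelial receptor gene kdrl drives GFP in the vessels and in the blood cells that arise from them. The first group was the miR-128 mutant (titled MT, lacking the microRNA miR-128). The others were csnk1a1 g3UTR and jag1b g3UTR (guide RNAs against the miR-128 site in the genomic 3′ untranslated region of csnk1a1, a casein kinase of the Wnt pathway, or of jag1b, a Notch ligand), and WT, all carrying the reporter. Each group was 1 library of pooled embryos, made in a single experiment, so a difference between libraries has no replicate error and no test. The study's methods describe guide RNAs and Cas9 mRNA injected into WT embryos at the single-cell stage, which gives mixed alleles, and the sources used here do not give whether the sequenced g3UTR embryos were injected or bred.

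The libraries held 9380 to 12918 barcodes and 69980329 to 144258953 unique molecular identifiers (UMIs, each a counted molecule), and 42770 cells were kept. A kept cell of the miR-128 mutant had a median of 9455 UMIs, against 10374 in WT. In csnk1a1 g3UTR this depth was 7612 UMIs, and 5622 UMIs in jag1b g3UTR. Both g3UTR libraries were thus the shallowest, and per the file headers they were also processed with a later Cell Ranger version than the other pair, so genotype, depth and software cannot be told apart for them. Pairs of libraries shared 26 to 55 barcodes.

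Cells were sorted into 5 classes by marker genes, none of them a mitosis gene of the list. Erythroid and myeloid cells had a UMI of at least 3 of 10 erythroid or 12 myeloid genes, nHSPCs had a UMI of the progenitor factor myb and of at least 1 of 7 other progenitor genes, haemogenic endothelial cells had at least 4 endothelial genes and runx1 or gata2b, and endothelial cells (ECs) had at least 4 endothelial genes and neither. All sets of 4 library values run from the miR-128 mutant through csnk1a1 g3UTR and then jag1b g3UTR to WT. The classes held 555, 572, 450 and 599 nHSPCs, 251, 215, 242 and 324 haemogenic ECs, 84, 270, 383 and 110 erythroid cells, 303, 553, 570 and 410 myeloid cells and 7551, 6574, 8379 and 9931 ECs. The summed erythroid genes reached 3048 to 5248 CPM (UMIs scaled to a common total per class) in erythroid cells against at most 42.0 CPM in any other class, and the myeloid genes 43754 to 52392 CPM in myeloid cells against at most 265 CPM elsewhere. The nHSPC class still held 2098 to 3393 CPM of endothelial genes, against 5681 to 11243 CPM in ECs, and 4 of 5 epidermal check genes were above their EC level in it, with a sum of 129.8 to 371 CPM against 44.5 to 116 CPM in ECs. The part of these other transcripts in the results was not tested. The 7 progenitor genes beside myb summed to 838 to 935 CPM in nHSPCs, against 429 to 495 CPM in ECs and 1528 to 1752 CPM in myeloid cells. Only 19, 25, 48 and 33 cells were left out for a myb UMI without any of the 7, so the nHSPC gate rested mostly on myb. With ptprc or ikzf1 asked for beside myb, 339, 346, 230 and 344 nHSPCs remained. The median depth of a class also differed, with 7920 to 14966 UMIs per nHSPC, 5994 to 10057 per haemogenic EC, 7242 to 14904 per erythroid cell and 10335 to 21327 per myeloid cell against 5621 to 10318 per EC, and a gate that needs a detected marker takes deeper cells more readily.

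All 36 genes had UMIs in each of the 20 sums of 4 libraries and 5 classes, with at least 5 UMIs, and all passed the filter on low counts. Summed over the 36 genes, the level was 966, 1379, 1630 and 1104 CPM in nHSPCs and 959, 1626, 1506 and 1059 CPM in haemogenic ECs. It was 1382, 2263, 2571 and 1362 CPM in erythroid cells and 1138, 1678, 2060 and 975 CPM in myeloid cells, against 880, 1243, 1479 and 1093 CPM in ECs. Erythroid cells had the highest sum in every library, and ECs the lowest in every library but WT, where myeloid cells were lowest. The order of nHSPCs and ECs changed with depth. Up to 20000 UMIs, nHSPCs held 674, 1276, 1589 and 698 CPM, against 795, 1203, 1474 and 931 CPM in ECs. Between 20000 and 35000 UMIs, nHSPCs held 1671, 2151, 3698 and 1706 CPM, against 1742, 1981, 1897 and 2189 CPM. The 3698 CPM came from 3 cells. The nHSPC level was below the EC level in both ranges in the miR-128 mutant and WT, and above it in both g3UTR libraries. The part of depth in the class sums was not tested. Within the ECs, those with more arterial than venous markers held 1601, 2106, 2433 and 1860 CPM, against 554, 869, 1097 and 740 CPM in those with more venous and lymphatic markers, so that the arterial sum was the higher in all 4 libraries. Most ECs were venous and lymphatic, 5043, 4394, 5570 and 6708 cells, against 1753, 1429, 1798 and 2267 arterial ECs. The arterial sum was above the nHSPC sum in every library, and above the erythroid sum in the miR-128 mutant and WT. As a 3′ kit counts a molecule once whatever its length, levels are compared between cells and not between genes.

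**Figure D1:**
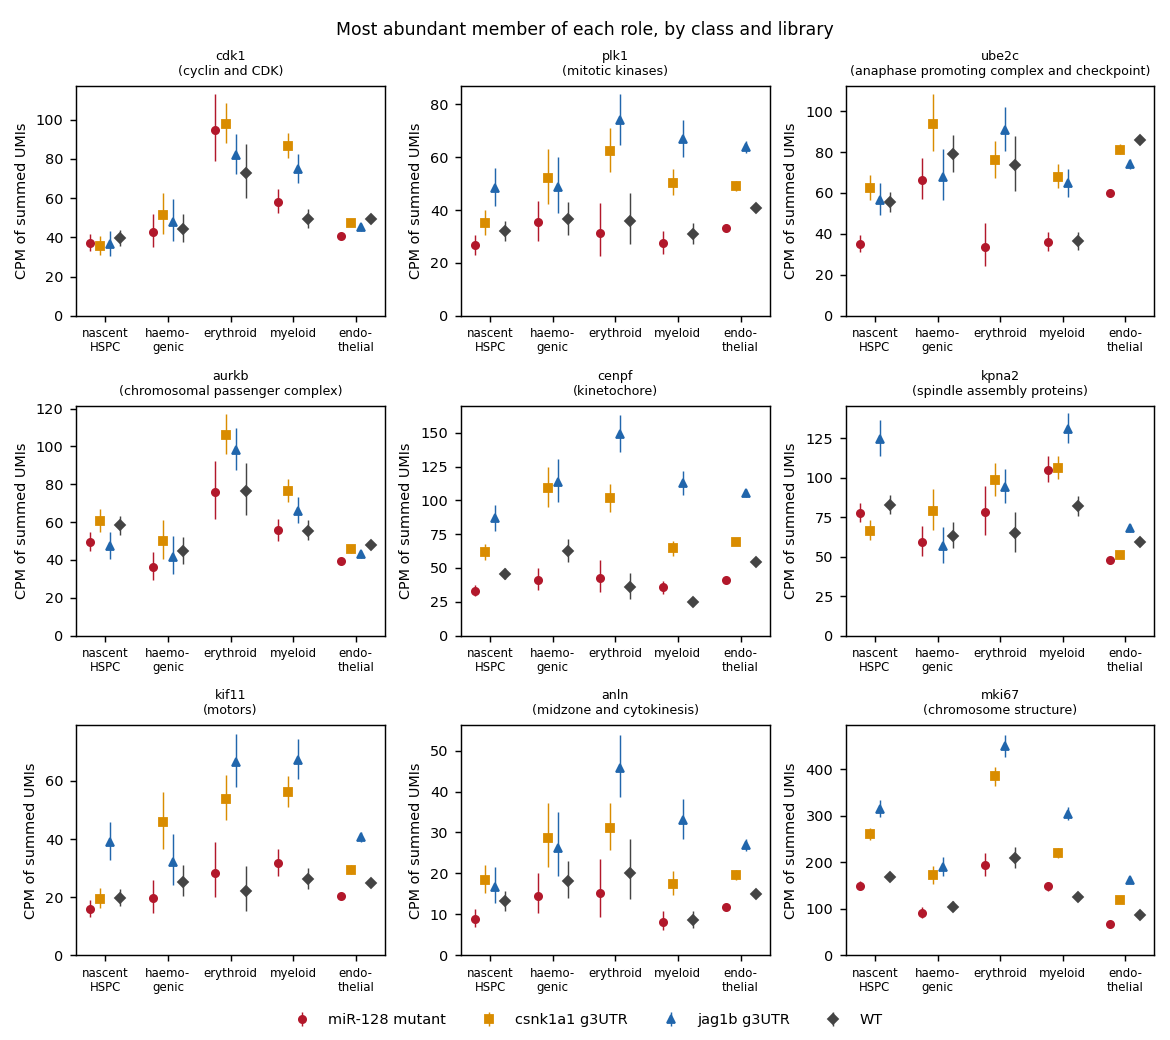
Level of the most abundant gene of each of the 9 roles (vertical axis, CPM of the UMIs summed over a class, starting at 0) in nascent HSPCs, haemogenic ECs, erythroid cells, myeloid cells and ECs (horizontal axis), with 1 point per library and bars for the exact 95% Poisson interval, which covers counting error only. mki67 lay between 150 and 314 CPM in nHSPCs against 68.3 to 163 CPM in ECs, while cdk1 had its highest points, 72.8 to 97.7 CPM, in erythroid cells.

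The question put to the class sums was which mitosis genes differed between blood classes and ECs of the same libraries. In each, edgeR's quasi-likelihood test took the 4 libraries as replicates and as a block, with trimmed-mean (TMM) scaling and Benjamini-Hochberg adjustment over 14944 genes at a threshold of 0.05. The 4 libraries are 4 genotypes, so the p-values measure how alike the class difference was across them. All 4 comparisons share the ECs. Log2 fold changes (± SE) are on the TMM scale, whose factors were 0.708 to 0.857 for erythroid, 0.795 to 0.939 for myeloid and 1.06 to 1.29 for EC sums, whereas CPM are per total UMIs, so that a gene at like CPM in blood cells and ECs has a positive fold change.

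In nHSPCs, some mitosis genes were higher than in ECs and others lower. The proliferation antigen gene mki67 and the condensin gene smc4 were each over 2-fold higher in nHSPCs than in ECs, while the anaphase activator cdc20, the kinase aurka and the midzone genes prc1b and kif23 were lower. Of the 36 genes, 7 rose (mki67, smc4, kpna2, smc2, tpx2, aurkb and ncapg), 9 fell (prc1b, aurka, kif23, ect2, cdc20, ube2c, kif20a, prc1a and plk1) and 20 did not pass the test. Over all genes, 35.8% rose and 35.3% fell, so fewer of the mitosis genes were called in either direction than of all genes. Their median log2 fold change was −0.11, beside 0.02 over all genes tested. Only 6 of the 16 calls were kept under all 14 other settings tried, those of mki67, smc4, aurka, cdc20, kif23 and prc1b.

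Other genes of division were described beside them. Of 54 further mitosis genes found in the files (of 60 listed), 53 were tested, and in nHSPCs 23 rose and 3 fell, with a median log2 fold change of 0.30. All 20 genes of DNA replication rose, by a median log2 fold change of 1.0. The lists were not tested against each other or against all genes, of which 35.8% rose. These lists were chosen with earlier results of these data known.

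In erythroid cells nearly the whole list was raised. Of the 36 genes, 35 rose and none fell, where 32.5% of all genes rose and 35.1% fell. Their median log2 fold change was 1.18, beside −0.10 over all genes, and ranged between 0.24 for kif23 and 2.18 for smc4. The exception was kif23, a kinesin that bundles midzone microtubules, whose difference of 0.24 ± 0.16 (SE) did not pass (edgeR adjusted p = 0.18). The scaling bears on this comparison, since globin genes took 28.5%, 23.9%, 21.3% and 24.5% of erythroid UMIs and under 0.08% in any other class. Globin genes were here all genes with symbols starting with hbae, hbbe, hbaa or hbba. With each sum scaled by its total UMIs in place of TMM, the median over all genes shifted to −0.71, that of the mitosis genes was 0.56, 25 genes rose and 1 fell, and of all calls 27.1% were upward in place of 48.0%. Of the other mitosis genes 50 of 53 rose and none fell (median 1.43), and all 20 replication genes rose (median 1.77).

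Myeloid cells came next, with 28 genes raised, 1 lower and 7 not called, where 41.1% of all genes rose and 35.8% fell. The median log2 fold change was 0.58, beside 0.06 over all genes. The gene that fell was ect2, the exchange factor that activates RhoA for cytokinesis, at −0.45 ± 0.20 (SE, edgeR adjusted p = 0.042). That call was lost without the miR-128 mutant (−0.47, adjusted p = 0.060), without csnk1a1 g3UTR (−0.57, adjusted p = 0.055) and without WT (−0.24, adjusted p = 0.23). The myeloid count changed with the limit on UMIs per cell and with the scaling. With cells over 20000 UMIs left out it was 9 higher and 2 lower, and with total UMIs in place of TMM it was 14 higher and 4 lower, with the median over all genes at −0.38 and 36.4% of all calls upward in place of 53.4%. The limit left 132, 461, 552 and 179 myeloid cells of 303, 553, 570 and 410. The part of these lost cells in the lower count was not tested. On total UMIs, the 36 genes summed to 459, 1331, 1969 and 512 CPM in myeloid cells up to 20000 UMIs. ECs of that depth held 795, 1203, 1474 and 931 CPM. Between 20000 and 35000 UMIs, myeloid cells held 1417, 2592, 3179 and 1124 CPM, against 1742, 1981, 1897 and 2189 CPM in ECs. The myeloid sum was below the EC sum in both ranges in the miR-128 mutant and WT, and above it in both g3UTR libraries. The part of depth in the 28 rises was not tested. Of the other mitosis genes 37 rose and 2 fell, and of the replication genes 16 rose and none fell.

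Haemogenic ECs, which differ from the ECs here by a runx1 or gata2b UMI, showed few called differences from them at full depth. Of the 36 genes, 1 rose and none fell, where 11.4% of all genes rose and 18.5% fell, and at an unadjusted p under 0.05 the count was 1 higher (mki67) and 1 lower (bub3). The median log2 fold change was 0.01, beside −0.06 over all genes. The gene that rose, mki67, did so by 0.27 ± 0.09 (SE, edgeR adjusted p = 0.038), and its call was lost without the miR-128 mutant (adjusted p = 0.052), without csnk1a1 g3UTR (adjusted p = 0.12) and without jag1b g3UTR (adjusted p = 0.080). Without WT 3 genes rose, and without csnk1a1 g3UTR 2 fell. Of all calls 38.1% were upward with TMM, against 51.1% with median-of-ratios scaling and 51.8% with total UMIs, and DESeq2 also called 1 gene higher and none lower. With thinning before gating 7 of 35 genes tested fell and none rose, with a median of −0.52 beside −0.11 over all genes. Only 3 of 20 replication genes rose and 3 fell.

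**Figure D2:**
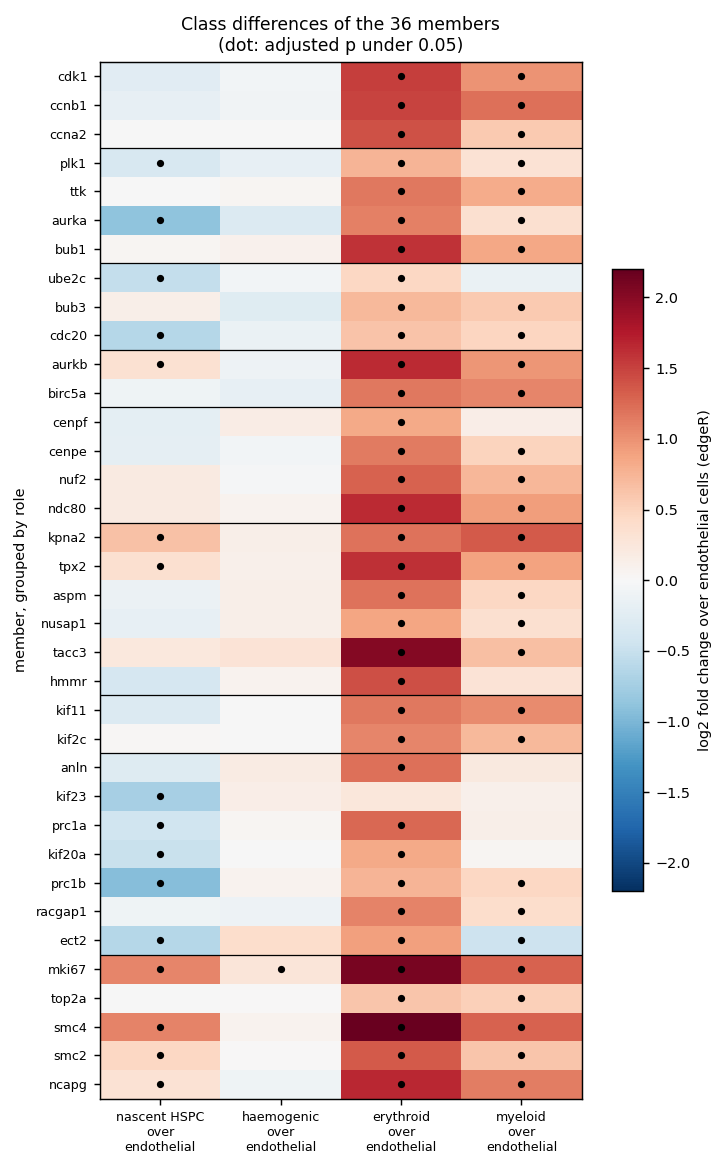
Log2 fold change of each of the 36 genes (rows, grouped by role) in nascent HSPCs, haemogenic ECs, erythroid and myeloid cells (columns) over ECs, coloured red for higher and blue for lower, with dots on the differences that passed edgeR's test at an adjusted p of 0.05. The erythroid column is marked as higher in 35 of 36 rows, the haemogenic column has 1 dot, and the nHSPC column has both colours.

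Cyclin and CDK genes were not called in nHSPCs and rose in erythroid and myeloid cells. cdk1, the kinase of mitotic entry, had 37.1, 35.6, 36.6 and 39.7 CPM in nHSPCs, against 40.8, 47.4, 45.0 and 49.2 CPM in ECs. It lay below its EC level in nHSPCs of every library, by −0.25 ± 0.12 on the log2 scale, which did not pass the test (edgeR adjusted p = 0.076). In erythroid cells cdk1 reached 94.9, 97.7, 82.1 and 72.8 CPM, and in myeloid cells 58.2, 86.6, 75.0 and 49.3 CPM. The rise was 1.52 ± 0.13 in erythroid cells (edgeR adjusted p = 1.0e-09) and 0.99 ± 0.12 in myeloid cells (1.8e-07), with the lowest erythroid library above the highest EC library and the WT myeloid value level with that of WT ECs before scaling. ccnb1, the cyclin that activates cdk1 at mitotic entry, had 10.9, 19.4, 30.3 and 18.0 CPM in nHSPCs, against 18.0, 22.9, 25.2 and 20.6 CPM in ECs. Erythroid cells had 24.5, 53.4, 54.5 and 27.6 CPM and myeloid cells 33.8, 43.7, 59.0 and 19.6 CPM. Its nHSPC values overlapped the EC values (−0.18 ± 0.18), and its rise was 1.49 ± 0.20 in erythroid and 1.22 ± 0.17 in myeloid cells. ccna2, a cyclin of S phase and G2, followed the other pair, at −0.01 in nHSPCs, 1.40 in erythroid and 0.58 in myeloid cells.

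Among the mitotic kinases, aurka and plk1 fell in nHSPCs while ttk and bub1 did not pass the test. plk1, a kinase of centrosomes, kinetochores and cytokinesis, had 26.6, 35.0, 48.2 and 31.9 CPM in nHSPCs, against 33.3, 49.1, 63.7 and 40.7 CPM in ECs. The level was 31.4, 62.3, 73.9 and 35.8 CPM in erythroid cells and 27.5, 50.4, 66.9 and 30.9 CPM in myeloid cells. Within each library the nHSPC value was the lower, with a fall of −0.36 ± 0.12 (edgeR adjusted p = 0.0092), while plk1 rose by 0.74 ± 0.13 in erythroid and by 0.32 ± 0.11 in myeloid cells. Its myeloid call was lost without csnk1a1 g3UTR (adjusted p = 0.096) and without jag1b g3UTR (adjusted p = 0.14). ttk, a checkpoint kinase at the kinetochore, had 15.4, 16.0, 22.8 and 13.6 CPM in nHSPCs, against 13.5, 18.2, 21.2 and 16.3 CPM in ECs. Its erythroid level was 18.4, 31.0, 31.6 and 19.5 CPM and its myeloid level 18.5, 23.5, 35.4 and 15.4 CPM. It was 1.15 ± 0.15 higher in erythroid and 0.82 ± 0.12 higher in myeloid cells and at −0.02 ± 0.13 in nHSPCs, where its values overlapped those of ECs. aurka, the kinase of centrosome maturation and spindle poles, had 7.74, 10.4, 14.1 and 11.2 CPM in nHSPCs against 16.8, 21.7, 22.7 and 20.1 CPM in ECs. No nHSPC library reached the lowest EC library, and the fall was −0.89 ± 0.15 (edgeR adjusted p = 2.1e-05), beside a rise of 1.11 in erythroid and of 0.36 in myeloid cells. On total UMIs both myeloid differences turned negative without a call (−0.13 for plk1 and −0.09 for aurka). The myeloid call of aurka was lost without the miR-128 mutant (adjusted p = 0.081) and without jag1b g3UTR (adjusted p = 0.35).

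Of the anaphase promoting complex and checkpoint genes, ube2c and cdc20 fell in nHSPCs and bub3 did not. ube2c, the ubiquitin-conjugating enzyme that works with the complex, had 35.0, 62.5, 56.6 and 55.6 CPM in nHSPCs and 36.1, 68.0, 64.7 and 36.4 CPM in myeloid cells, against 60.1, 81.2, 74.2 and 86.0 CPM in ECs. The nHSPC value was below the EC value in every library (−0.52 ± 0.15, edgeR adjusted p = 0.0035), and ube2c was also the gene of the role that did not rise in myeloid cells (−0.15 ± 0.15, adjusted p = 0.36). In erythroid cells it had 33.7, 76.0, 90.8 and 73.5 CPM and a rise of 0.45 ± 0.16 (adjusted p = 0.016), which was lost without csnk1a1 g3UTR (adjusted p = 0.091) or without jag1b g3UTR (adjusted p = 0.21) and turned to −0.15, not called, on total UMIs. bub3, a checkpoint protein at the kinetochore, had 61.9, 56.7, 46.0 and 50.5 CPM in nHSPCs, against 47.2, 52.5, 49.6 and 51.4 CPM in ECs. It had 45.9, 65.3, 51.7 and 50.9 CPM in erythroid cells and 55.4, 56.0, 52.7 and 55.8 CPM in myeloid cells. Its nHSPC and erythroid CPM values overlapped those of ECs, while its lowest myeloid value of 52.7 CPM lay just above the highest EC value of 52.5 CPM. The bub3 rise of 0.72 ± 0.11 in erythroid and 0.58 ± 0.09 in myeloid cells under TMM was lost with total UMIs. cdc20, the activator of the complex at anaphase, had 18.7, 21.2, 22.2 and 21.0 CPM in nHSPCs against 30.1, 33.2, 33.8 and 33.8 CPM in ECs, with no overlap (−0.62 ± 0.17, edgeR adjusted p = 0.0025). It rose in erythroid cells by 0.62 and in myeloid cells by 0.47, and both calls were lost without csnk1a1 g3UTR (adjusted p = 0.12 and 0.13) and without jag1b g3UTR (adjusted p = 0.082 and 0.15).

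The chromosomal passenger complex corrects attachments and later marks the midzone. aurkb, its kinase, had 49.5, 60.6, 47.1 and 58.2 CPM in nHSPCs, against 39.4, 45.6, 43.0 and 47.6 CPM in ECs. Erythroid cells had 75.8, 106, 98.3 and 76.6 CPM and myeloid cells 55.6, 76.3, 66.0 and 55.5 CPM. Every nHSPC value was above its own library's EC value, though the lowest nHSPC library lay under the highest EC library, and the rise was 0.33 ± 0.10 in nHSPCs (edgeR adjusted p = 0.0055), 1.64 ± 0.11 in erythroid cells (1.2e-11) and 0.96 ± 0.10 in myeloid cells (1.2e-08). birc5a, the survivin subunit of the complex, had 16.8, 29.8, 30.3 and 18.9 CPM in nHSPCs, against 17.6, 30.0, 31.9 and 23.3 CPM in ECs. The level was 30.6, 43.8, 46.7 and 31.4 CPM in erythroid cells and 30.5, 53.3, 50.9 and 27.5 CPM in myeloid cells. It rose by 1.16 ± 0.11 in erythroid and by 1.08 ± 0.09 in myeloid cells, and in nHSPCs its −0.09 ± 0.10 did not pass the test.

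No kinetochore gene was called in nHSPCs. cenpf, a large kinetochore protein of G2 and mitosis, had 33.2, 61.7, 86.7 and 45.7 CPM in nHSPCs, against 40.8, 69.2, 105 and 54.0 CPM in ECs. Its erythroid level was 42.9, 102, 149 and 35.8 CPM and its myeloid level 35.6, 64.4, 113 and 25.1 CPM. It rose in erythroid cells (0.83 ± 0.18, edgeR adjusted p = 0.00031), though the WT erythroid CPM was below the WT EC value, and the call was lost on total UMIs (0.21, adjusted p = 0.27) and with no library block. Its nHSPC and myeloid differences of −0.22 ± 0.17 and 0.15 ± 0.17 did not pass the test, and the myeloid one was called under 2 alternatives. cenpe, a kinetochore motor that brings chromosomes to the spindle equator, had 17.6, 25.3, 39.0 and 22.0 CPM in nHSPCs, against 21.0, 30.1, 43.1 and 26.3 CPM in ECs. It had 19.9, 47.4, 78.9 and 32.7 CPM in erythroid cells and 24.6, 36.3, 50.7 and 17.6 CPM in myeloid cells. The spread between libraries was wider than that between classes, and within the block cenpe rose by 1.15 ± 0.14 in erythroid and 0.49 ± 0.13 in myeloid cells and stood at −0.20 ± 0.13 in nHSPCs. ndc80 and nuf2, partners in the complex that binds microtubules, stood at 0.19 and 0.20 in nHSPCs, 1.64 and 1.31 in erythroid cells and 0.92 and 0.73 in myeloid cells.

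Among the spindle assembly proteins, kpna2 and tpx2 rose in nHSPCs, erythroid and myeloid cells alike. kpna2, an importin that binds spindle factors outside mitosis, had 77.8, 66.5, 125 and 82.7 CPM in nHSPCs, against 47.6, 51.1, 68.2 and 59.1 CPM in ECs. Erythroid cells had 78.1, 98.3, 94.3 and 64.7 CPM and myeloid cells 105, 106, 131 and 81.9 CPM. Its rise was 0.65 ± 0.14 in nHSPCs (edgeR adjusted p = 0.00036), 1.19 ± 0.16 in erythroid cells and 1.34 ± 0.14 in myeloid cells. tpx2, which activates aurka on the spindle, had 39.2, 66.5, 77.2 and 51.2 CPM in nHSPCs, against 30.0, 53.0, 68.0 and 40.1 CPM in ECs. The level was 64.3, 121, 142 and 58.4 CPM in erythroid cells and 45.1, 77.2, 109 and 38.1 CPM in myeloid cells. The nHSPC value was above the EC value of its own library in all 4 (0.35 ± 0.12, edgeR adjusted p = 0.012), and the rise was 1.61 ± 0.13 in erythroid and 0.89 ± 0.12 in myeloid cells. The hyaluronan-mediated motility receptor gene hmmr, nusap1, aspm and tacc3, all of spindle microtubules or poles, were not called in nHSPCs, at −0.37 to 0.24, and rose by 0.88 to 2.02 in erythroid cells. hmmr was the gene of the role that was not called in myeloid cells, at 0.30 (edgeR adjusted p = 0.11). The myeloid call of nusap1 (0.35) was lost under 10 of 14 alternatives, that of aspm (0.46) under 6 and that of tacc3 (0.66) under 2. On total UMIs nusap1 turned to −0.10 in myeloid cells without a call.

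Both motors rose in erythroid and myeloid cells, and neither was called in nHSPCs or haemogenic ECs. kif11, the kinesin that pushes the spindle poles apart, had 15.9, 19.4, 39.0 and 19.7 CPM in nHSPCs, against 20.4, 29.5, 40.7 and 24.9 CPM in ECs. Its erythroid level was 28.3, 53.9, 66.4 and 22.0 CPM and its myeloid level 31.6, 56.1, 67.2 and 26.2 CPM. It was under its EC value in all 4 nHSPC libraries without passing the test (−0.30 ± 0.16, edgeR adjusted p = 0.10), and it rose by 1.16 ± 0.18 in erythroid and 1.04 ± 0.16 in myeloid cells. kif2c, a kinesin that shortens microtubules at the kinetochore, had 6.09, 10.7, 12.7 and 8.30 CPM in nHSPCs, against 6.31, 9.77, 12.5 and 8.98 CPM in ECs. It had 5.36, 17.4, 17.5 and 10.0 CPM in erythroid cells and 7.38, 13.5, 18.9 and 7.20 CPM in myeloid cells. Its nHSPC values overlapped the EC values (0.02 ± 0.15), and its rise was 1.07 ± 0.18 in erythroid and 0.71 ± 0.14 in myeloid cells, where the call was lost on total UMIs and at the limit of 20000 UMIs.

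The midzone and cytokinesis genes were the role with the most falls in nHSPCs, 5 of 7, and the role with the smallest share of rises in myeloid cells, 2 of 7. Those rises were of prc1b (0.46, call lost under 8 of 14 alternatives) and racgap1 (0.39, call lost under 10 of 14). On total UMIs racgap1 turned to −0.06 in myeloid cells without a call. anln, the anillin scaffold of the contractile ring, had 8.88, 18.4, 16.8 and 13.2 CPM in nHSPCs, against 11.8, 19.5, 26.8 and 15.1 CPM in ECs. Erythroid cells had 15.3, 31.0, 45.7 and 20.1 CPM and myeloid cells 8.20, 17.5, 33.1 and 8.54 CPM. It lay under the EC value in every nHSPC library without passing the test (−0.28 ± 0.16, edgeR adjusted p = 0.12) and rose in erythroid cells (1.21 ± 0.17). kif23 had 9.52, 14.1, 16.3 and 13.2 CPM in nHSPCs, against 17.0, 24.2, 26.2 and 21.7 CPM in ECs. The level was 7.65, 21.2, 24.1 and 15.1 CPM in erythroid cells and 11.5, 22.3, 26.8 and 12.9 CPM in myeloid cells. No nHSPC library reached the lowest EC library (−0.72 ± 0.13, edgeR adjusted p = 5.3e-05), and kif23 was called in neither of the other blood classes. prc1b, 1 of a pair of genes for the protein that crosslinks midzone microtubules, had 5.46, 7.59, 8.67 and 8.30 CPM in nHSPCs against 11.0, 16.7, 18.1 and 14.2 CPM in ECs. These values did not overlap either, with the largest fall of the list (−0.94 ± 0.20, edgeR adjusted p = 0.00031), and its partner prc1a fell by −0.44 ± 0.16 (adjusted p = 0.018), a call lost without csnk1a1 g3UTR (adjusted p = 0.054) and without WT (adjusted p = 0.071). In erythroid cells prc1a and prc1b rose by 1.27 and 0.75, but the prc1b call was lost without csnk1a1 g3UTR (adjusted p = 0.081) and without jag1b g3UTR (adjusted p = 0.055). ect2 had 1.90, 5.42, 7.86 and 3.67 CPM in nHSPCs against 4.79, 7.47, 10.6 and 5.47 CPM in ECs, a fall of −0.63 ± 0.19 (edgeR adjusted p = 0.0063) that was lost without the miR-128 mutant (−0.43, adjusted p = 0.085). kif20a, a kinesin that carries the passenger complex to the midzone, fell by −0.49, while racgap1, the partner of kif23, stood at −0.10 and was not called.

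Chromosome structure genes were the role with the most rises in nHSPCs, 4 of 5. mki67, which coats mitotic chromosomes, had 150, 260, 314 and 169 CPM in nHSPCs, against 68.3, 119, 163 and 87.1 CPM in ECs. Its erythroid level was 194, 384, 450 and 209 CPM and its myeloid level 148, 220, 304 and 125 CPM. Within each library every blood class was above the ECs, and the rise was 1.07 ± 0.09 in nHSPCs (edgeR adjusted p = 7.4e-10), 2.09 ± 0.10 in erythroid cells (4.8e-14) and 1.30 ± 0.09 in myeloid cells (2.1e-11). smc4, a core subunit of condensin, had 58.5, 73.1, 77.7 and 52.3 CPM in nHSPCs, against 24.5, 32.9, 37.9 and 30.3 CPM in ECs. It had 72.7, 104, 124 and 74.7 CPM in erythroid cells and 46.9, 61.2, 69.9 and 48.6 CPM in myeloid cells. No blood library overlapped an EC library, and the rise was 1.09 ± 0.11 in nHSPCs (edgeR adjusted p = 1.8e-08), 2.18 ± 0.12 in erythroid and 1.29 ± 0.11 in myeloid cells. smc2, the partner of smc4, and ncapg, a further condensin subunit, rose in nHSPCs by 0.45 and 0.32, the second only with jag1b g3UTR in the fit (adjusted p = 0.067 without it). top2a, the topoisomerase that untangles the chromosomes, was the gene that went another way, with 43.7, 73.5, 98.1 and 50.5 CPM in nHSPCs, 53.6, 85.2, 89.3 and 45.2 CPM in erythroid cells and 56.7, 86.7, 112 and 38.3 CPM in myeloid cells, against 48.4, 71.7, 93.4 and 55.1 CPM in ECs. Its nHSPC difference was −0.02 ± 0.12, and its rises of 0.62 ± 0.13 in erythroid and 0.52 ± 0.12 in myeloid cells were lost with total UMIs or with cells over 20000 UMIs left out.

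In single cells, most ECs and haemogenic ECs had none of these transcripts, most erythroid cells had some, and a minority of each class had many. Every cell was thinned to 3000 UMIs, which left out 6 to 1614 shallower cells per class and library. Of ECs, 69.3%, 60.6%, 56.7% and 63.2% then had no UMI of any of the 36 genes. That share was 51.0%, 40.4%, 37.0% and 52.6% of nHSPCs and 49.7%, 37.4%, 36.4% and 52.9% of myeloid cells. In erythroid cells it was 26.0%, 11.4%, 10.6% and 24.5%. The highest count in 1 cell was 30 genes. Cells with at least 5 of them made up 28.6%, 49.4%, 47.1% and 23.4% of erythroid cells and 17.1%, 31.4%, 29.8% and 16.8% of myeloid cells. They made up 13.8%, 20.4%, 23.6% and 14.5% of nHSPCs and 9.47%, 17.2%, 15.9% and 12.4% of haemogenic ECs, against 10.1%, 14.4%, 15.8% and 12.6% of ECs. With at least 5 genes asked for, the erythroid share was the highest in every library and the nHSPC share was above the EC share in all 4. With cells over 20000 UMIs left out, that nHSPC order turned in WT (10.1% of nHSPCs against 11.4% of ECs). It held in jag1b g3UTR (23.3% against 15.7%). Arterial ECs reached 18.7%, 25.7%, 26.9% and 20.9%, against 6.06%, 9.69%, 11.3% and 8.46% of venous and lymphatic ECs. The arterial share was thus above the nHSPC share in all 4 libraries. With at least 8 genes, WT erythroid cells were at 8.51%, below WT nHSPCs (9.86%) and WT ECs (9.71%). In the miR-128 mutant, 6.56% of nHSPCs then had at least 8 genes, against 7.50% of ECs. Of the 5 classes, the erythroid share stayed highest outside WT, and the nHSPC share stayed above the EC share outside the miR-128 mutant. Arterial ECs then stood at 14.4%, 19.2%, 21.1% and 16.7%, above the nHSPC share in all 4 libraries. They were also above the erythroid share in the miR-128 mutant (11.7%) and in WT. Cells with at least 5 genes carried 64.6% to 92.4% of a class's mitosis UMIs, and in ECs they held 5821, 6170, 6998 and 6144 CPM, against 119, 159, 173 and 146 CPM in the cells below. They were also deeper before thinning, with a median of 13450 UMIs against 10391 UMIs in WT ECs.

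**Figure D3:**
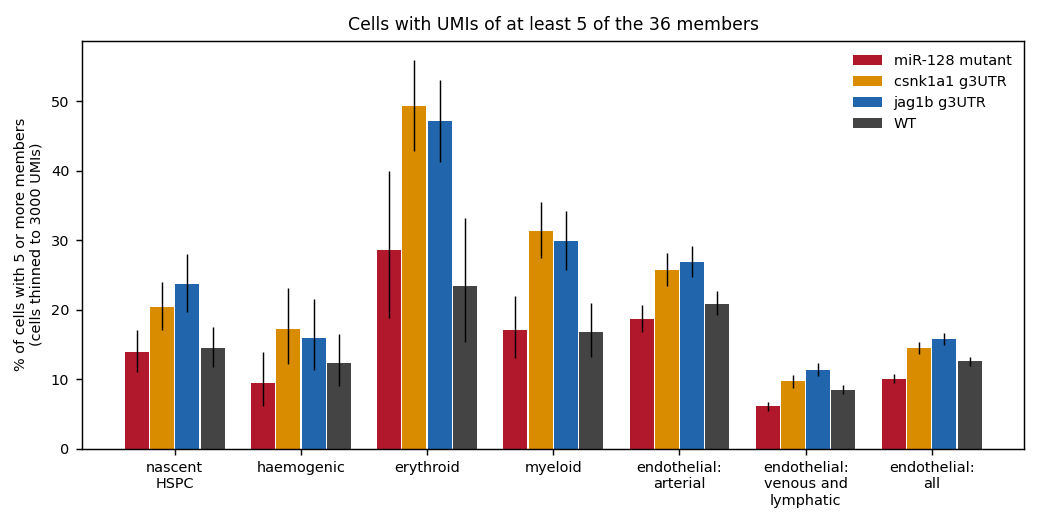
Share of cells with at least 5 of the 36 mitosis genes detected after thinning to 3000 UMIs (vertical axis, percent, starting at 0) in each class (horizontal axis), with 1 bar per library and lines for the exact 95% Clopper-Pearson interval. Erythroid cells of csnk1a1 g3UTR and jag1b g3UTR reached 49.4% and 47.1%, against 23.4% in WT, and arterial ECs lay above venous and lymphatic ECs in every library.

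Detection of a single gene needs its background, taken here from cells with no UMI of the 54 mitosis genes outside the list. Such cells, called below cells without other mitosis genes, may still hold UMIs of further genes of the list. mki67 was detected in 22.0%, 32.5%, 35.1% and 22.1% of thinned nHSPCs (42.3%, 52.8%, 51.1% and 42.4% unthinned), against 8.40%, 12.9%, 16.1% and 10.7% of thinned ECs (13.5%, 18.6%, 19.7% and 16.6% unthinned). Among cells without other mitosis genes it was in 8.81%, 7.50%, 12.6% and 7.44% of nHSPCs, against 0.603%, 1.39%, 2.29% and 0.625% of ECs. The nHSPC share was higher in every library also among cells without other mitosis genes. cdk1, by contrast, was in 5.83%, 7.45%, 6.92% and 6.97% of thinned nHSPCs and in 5.48%, 7.27%, 7.24% and 7.23% of thinned ECs, and at most 0.881% of nHSPCs or ECs without other mitosis genes had it. bub3 was detected in 17.5%, 13.1%, 13.8% and 14.8% of thinned nHSPCs, but also in 14.1%, 11.2%, 9.47% and 8.68% of those without other mitosis genes. These shares lay closest to each other in csnk1a1 g3UTR and furthest apart in WT.

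The levels were then set side by side among cells that other mitosis genes mark as rich, those with at least 6 of the 54 genes outside the list after thinning. They made up 8.20%, 18.2%, 19.1% and 11.1% of nHSPCs, against 8.07%, 12.4%, 14.0% and 10.5% of ECs. In such cells the 36 genes together stood at 0.720, 0.618, 0.732 and 0.777 times their EC level in nHSPCs. They stood at 0.460, 0.584, 0.521 and 0.479 times in erythroid cells, 0.677, 0.621, 0.730 and 0.567 times in myeloid cells and 1.16, 1.04, 1.01 and 0.967 times in haemogenic ECs. The lower level per rich cell in the 3 blood classes thus stood in all 4 libraries on total UMIs. It stood beside the higher share of cells with at least 5 genes, which in WT nHSPCs depended on cells over 20000 UMIs. These levels were per total UMIs and not on the TMM scale of the class differences. The part of that scaling in the lower ratios, and of globin UMIs in those of erythroid cells, was not tested. The erythroid values came from as few as 8 cells in the miR-128 mutant. Among the 290 rich nHSPCs, mki67 and smc4 were above the rich ECs in every library, at 1.05 to 1.38 and 1.01 to 1.49 times. Of the 36 genes, 27 were below the rich ECs in every library, among them smc2, tpx2 and ncapg, whose class sums rose in nHSPCs. No such count was made over all genes, so the 27 cannot be read as particular to the mitosis genes. For prc1b, aurka, cdc20 and kif23, named here because their falls were kept under every alternative, the ratios were 0.136 to 0.374, 0.236 to 0.496, 0.299 to 0.556 and 0.301 to 0.483. These comparisons were not tested, and their cells were chosen by genes that move with the list.

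How closely each gene kept to cells marked by other mitosis genes was described in ECs of all libraries. It was taken between 996 cells rich in other mitosis genes (at least 4, with at most 1 replication gene) and 2442 cells rich in replication genes (the reverse). These groups were chosen in part by genes that move with the list, so a high ratio is partly built in. The ratios serve only to set the genes beside each other. prc1b had 362 UMIs in the mitosis-rich cells and 0 in the replication-rich cells. With 3 counts over the group put in place of 0 it was 296-fold higher per cell, and its 95% interval began at 239-fold. Few UMIs in the replication-rich cells also left wide intervals for kif20a at 422-fold (95% interval 116 to 3496, from 344 against 2 UMIs), hmmr at 343-fold (94.1 to 2848, from 280 against 2 UMIs) and tacc3 at 306-fold (104 to 1493, from 375 against 3 UMIs), so that these and prc1b cannot be ranked. aspm stood at 237-fold (132 to 476). The least restricted were bub3 at 3.27-fold (2.82 to 3.80), smc4 at 4.48-fold (3.54 to 5.70), smc2 at 6.47-fold (5.22 to 8.06) and aurkb at 12.8-fold (10.4 to 15.8). smc4, smc2 and aurkb were among the genes that rose in nHSPCs, while prc1b and kif20a fell and bub3 (0.13), tacc3 (0.24), hmmr (−0.37) and aspm (−0.12) were not called. Across the 36 genes, the log2 ratio between these EC groups and the log2 fold change of nHSPCs over ECs had a Pearson correlation of −0.43 and a Spearman correlation of −0.44, a description over genes that share libraries and EC cells and are not independent.

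**Figure D4:**
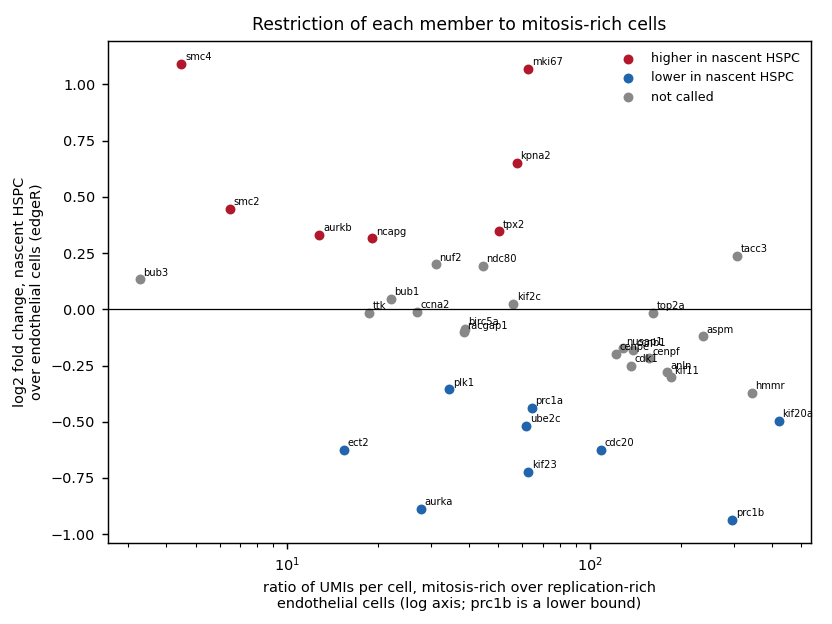
Log2 fold change of nascent HSPCs over ECs (vertical axis) against the ratio of UMIs per cell in mitosis-rich over replication-rich ECs (horizontal log axis), with 1 point per gene and 36 in all, where colours mark the genes called higher, called lower or not called, and prc1b is placed at its bound of 296-fold. smc4 and smc2 stand at the left at 4.48-fold and 6.47-fold with positive changes, and prc1b and kif20a at the right with negative ones.

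The last question was how the list stood in each mutant library relative to WT in the same class. All 3 comparisons share the WT library, ratios are of CPM, intervals are exact 95% binomial intervals for counting error only, and a gene is counted as past the fold at 1.5 times either way. In the miR-128 mutant, the genes lay below WT in ECs and mostly below it in nHSPCs, while their side of WT in myeloid cells changed with the limit on UMIs per cell. Their sum was 880 CPM in miR-128 mutant ECs against 1093 CPM in WT ECs, a ratio of 0.805 (0.798 to 0.813), and 966 CPM in miR-128 mutant nHSPCs against 1104 CPM in WT nHSPCs, a ratio of 0.875 (0.850 to 0.902). All 36 genes were below WT in ECs, by a median log2 ratio of −0.30 beside −0.01 over all genes, but none was past the fold, where 6.57% of all genes were past it above and 7.19% below. In nHSPCs 7 of 35 genes with enough UMIs were above WT and 28 below, by a median of −0.23 beside −0.03, and none was past the fold above and 4 below, where 4.49% and 7.21% of all genes were.

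The gene furthest below WT in miR-128 mutant nHSPCs was nusap1, a microtubule bundling protein, at 19.3 CPM against 37.6 CPM in WT (ratio 0.513, 0.421 to 0.622). Next were ccnb1 at 10.9 CPM against 18.0 CPM (0.606, 0.462 to 0.791) and ube2c at 35.0 CPM against 55.6 CPM (0.630, 0.542 to 0.730). bub3 stood above at 61.9 CPM against 50.5 CPM in WT (1.23, 1.08 to 1.40), followed by ttk and ncapg, both at a ratio of 1.13 with intervals that include 1. The ratio of bub3 turned to 0.950 when cells were thinned before gating. In miR-128 mutant ECs ube2c was lowest again, at 60.1 CPM against 86.0 CPM in WT (0.699, 0.674 to 0.725), with kif2c at 0.703 and ndc80 at 0.704, and bub1 (0.932), bub3 (0.919) and cdc20 (0.891) lay nearest to WT. The replication genes also stood below WT in ECs, at a summed ratio of 0.814, but not in nHSPCs, at 1.06. In myeloid cells the 36 genes had 1138 CPM in the miR-128 mutant against 975 CPM in WT (1.17, 1.13 to 1.21), with 27 of 35 genes above WT. This excess was only in cells between the limits of 20000 and 35000 UMIs, with 1417 CPM in the miR-128 mutant against 1124 CPM in WT. Up to 20000 UMIs it was 459 CPM against 512 CPM in WT (0.895, 0.816 to 0.982), and with no upper limit the ratio was 0.982 (0.955 to 1.01). After thinning before gating the ratio was 1.01 (0.882 to 1.16), and the share of myeloid cells with at least 5 of the genes was 1.02 times that of WT (0.687 to 1.5). In haemogenic ECs the ratio of 0.906 (0.861 to 0.953) also turned, to 1.82 (1.48 to 2.26), with thinning before gating.

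In csnk1a1 g3UTR, the summed list lay above WT in all 5 classes. The sum was 1243 CPM in csnk1a1 g3UTR ECs against 1093 CPM in WT ECs (ratio 1.14, 1.13 to 1.15) and 1379 CPM in csnk1a1 g3UTR nHSPCs against 1104 CPM in WT nHSPCs (1.25, 1.21 to 1.29). In ECs 29 genes were above WT and 7 below, by a median log2 ratio of 0.19 beside 0.15 over all genes, and none was past the fold, where 15.8% of all genes were past it above and 4.99% below. The EC difference was thus close to the shift of all genes. In nHSPCs 31 were above and 5 below (median 0.24 beside 0.07), and 3 were past the fold above and none below, where 11.1% and 5.84% of all genes were. Among those 3 was smc2 with 72.8 CPM against 39.2 CPM in WT (1.86, 1.62 to 2.13). They also held birc5a with 29.8 CPM against 18.9 CPM (1.58, 1.28 to 1.95) and mki67 with 260 CPM against 169 CPM (1.54, 1.43 to 1.65). Furthest below were kpna2 with 66.5 CPM against 82.7 CPM (0.804, 0.713 to 0.906), cdk1 (0.898, 0.759 to 1.06) and prc1b (0.915, 0.626 to 1.33), and kpna2 turned to 1.20 with cells over 20000 UMIs left out. In ECs mki67 (1.37), ect2 (1.36) and aspm (1.35) were furthest above and kpna2 (0.865), ndc80 (0.914) and ube2c (0.944) furthest below. Of the other 54 mitosis genes, 25 of 51 were past the fold above WT in nHSPCs, and the replication genes stood at a summed ratio of 1.23.

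For jag1b g3UTR the roles differed in their ratios, and the EC count past the fold was near that of all genes. The sum was 1479 CPM in jag1b g3UTR ECs against 1093 CPM in WT ECs (ratio 1.35, 1.34 to 1.37) and 1630 CPM in jag1b g3UTR nHSPCs against 1104 CPM in WT nHSPCs (1.48, 1.43 to 1.52). In ECs 29 genes were above WT and 7 below, by a median log2 ratio of 0.43 beside 0.32 over all genes, and 14 were past the fold above and none below, where 35.0% of all genes were past it above and 6.43% below. Scaled by the median ratio of all genes, the EC sum was at 1.08 times WT. In nHSPCs 32 were above and 4 below (median 0.58 beside 0.18), and 18 were past the fold above and none below, where 24.8% and 8.08% of all genes were. In nHSPCs ect2 had 7.86 CPM against 3.67 CPM in WT (2.14, 1.26 to 3.62). kif11 had 39.0 CPM against 19.7 CPM (1.98, 1.58 to 2.47) and top2a 98.1 CPM against 50.5 CPM (1.94, 1.69 to 2.23). aurkb had 47.1 CPM against 58.2 CPM (0.810, 0.679 to 0.962), and bub3 (0.913) and cdk1 (0.922) were next below with intervals that include 1. In ECs cenpf had 105 CPM against 54.0 CPM in WT (1.95, 1.88 to 2.02). ect2 had 10.6 CPM against 5.47 CPM (1.94, 1.72 to 2.19) and mki67 163 CPM against 87.1 CPM (1.87, 1.81 to 1.92). ube2c (0.863), aurkb (0.903) and cdk1 (0.916) lay below WT. The kinetochore genes as a group stood at 1.78 times WT in nHSPCs and 1.70 times in ECs, the cyclin and CDK genes at 1.12 and 0.988 times. With cells over 20000 UMIs left out, aurkb was at 1.20 in nHSPCs and 1.02 in ECs, and in ECs ube2c was at 1.02 and cdk1 at 1.11. The replication genes did not follow, at 1.0 times WT in nHSPCs and 0.909 times in ECs.

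**Figure D5:**
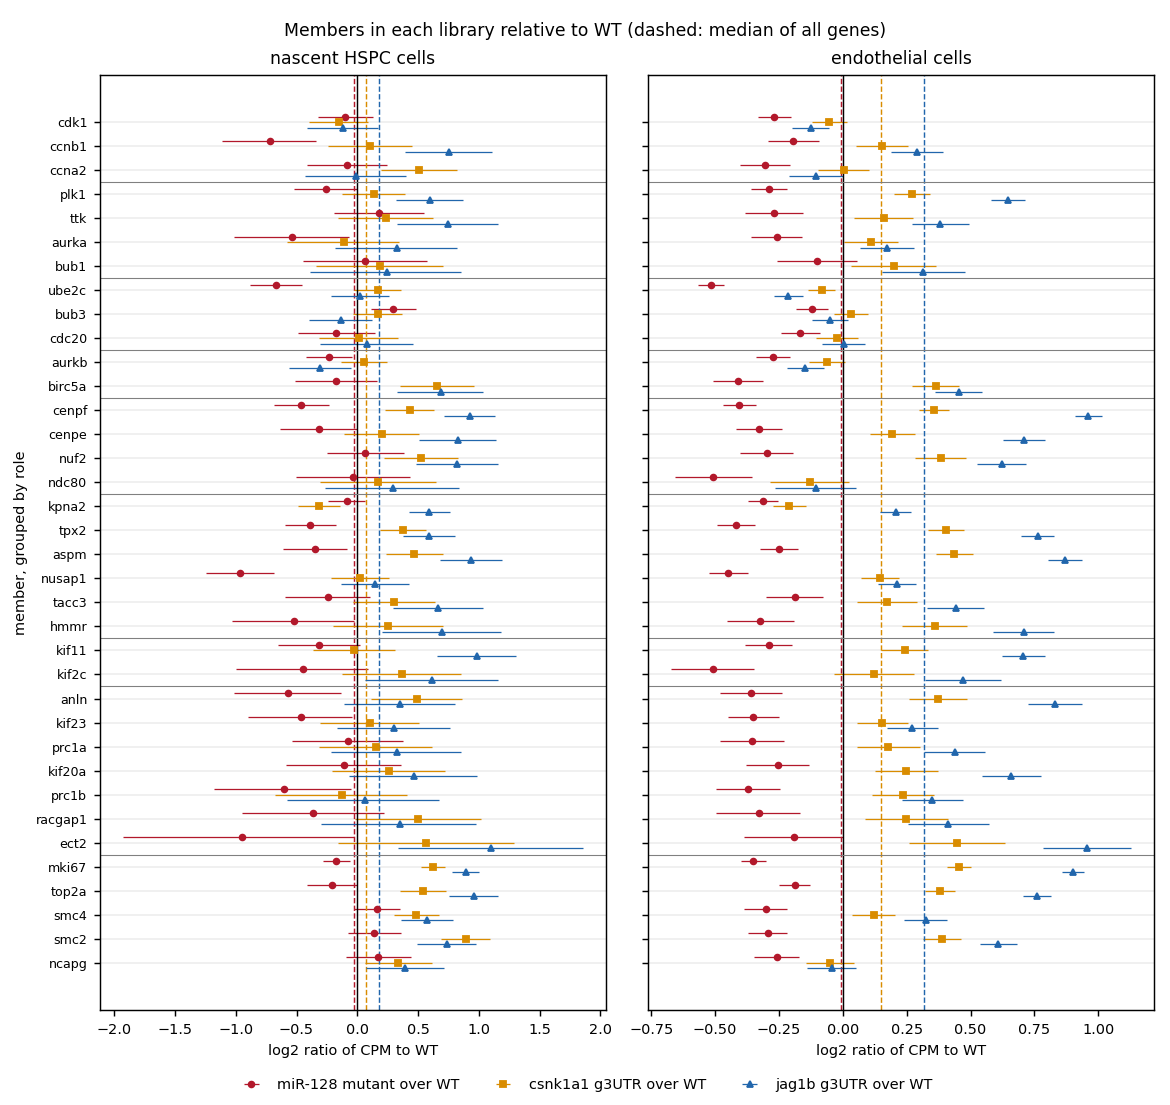
Log2 ratio (horizontal axis) of each of the 36 genes (rows) in each of the 3 mutant libraries over WT in nascent HSPCs and in ECs, with bars for the exact 95% interval of counting error and a dashed line for the median of all genes in that comparison. ect2 is plotted in nHSPCs of the miR-128 mutant although it was under the 50 UMIs asked of a counted gene. In the miR-128 mutant every EC point is below 0, with a median of −0.30, and in jag1b g3UTR the points spread between −0.21 and 0.96 in ECs.

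In nHSPCs and ECs, shares of cells at equal depth put the libraries in the same order as the sums. In erythroid and myeloid cells csnk1a1 g3UTR had the highest share with at least 5 genes, whereas jag1b g3UTR had the highest sum. When at least 8 genes were asked for, jag1b g3UTR had the highest share too. It was 26.3% in jag1b g3UTR against 25.3% in csnk1a1 g3UTR for erythroid cells, and 21.7% against 17.5% for myeloid cells. The counting intervals of these libraries overlapped in each case, so the shares do not settle their order. The share of nHSPCs with at least 5 of the genes was 0.958 times that of WT in miR-128 mutant embryos (0.693 to 1.32). With csnk1a1 g3UTR it was 1.41 times (1.05 to 1.89) and for jag1b g3UTR 1.63 times (1.21 to 2.21). The EC share was 0.801 times WT in miR-128 mutant embryos (0.729 to 0.879). With csnk1a1 g3UTR it was 1.15 times (1.05 to 1.25) and for jag1b g3UTR 1.25 times (1.15 to 1.36). Without thinning the jag1b g3UTR share was 1.05 times WT in nHSPCs and 1.01 times in ECs, and its cells were the shallowest. The level also moved with depth within a library, since WT ECs had 931 CPM of the list up to 20000 UMIs and 2189 CPM above that depth up to 35000 UMIs. With cells over 20000 UMIs left out, the summed ratio to WT in nHSPCs was 0.965 for the miR-128 mutant. It was 1.83 for csnk1a1 g3UTR and 2.28 for jag1b g3UTR. The limit took unequal parts of the libraries, leaving 458 of 555, 540 of 572, 447 of 450 and 446 of 599 nHSPCs. The 153 WT nHSPCs it left out held 1706 CPM of the list, against 698 CPM in those kept. The part of these cells in the larger ratios was not tested.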

How the data were processed

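Single-cell UMI counts per gene were deposited by the authors as filtered 10x matrices, 1 per library, not normalised. Per the file headers, the miR-128 mutant and WT matrices came from Cell Ranger 5.0.0 and the g3UTR matrices from Cell Ranger 6.0.1, while the submitters' processing notes name only 5.0.0. The study's methods describe a customised annotation with corrected 3′ ends, and the genome build is not given in the sources used here. Cells with at least 200 genes, at most 35000 UMIs and at most 20% mitochondrial UMIs were kept (9289 to 12519 per library, with 69980329 to 144258953 UMIs per library before filtering). Doublets were limited only by the upper limit and by leaving out the 1 to 34 cells per library that passed both the erythroid and the myeloid gate, and no doublet caller was run. The gates use detected markers and so move with depth. They name classes by markers and not by clusters, and 1 listed venous and lymphatic marker was not found.

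UMIs were summed per library and class, and the 20 sums were tested with edgeR 4.0.16 in R 4.3.3 (quasi-likelihood test, TMM, library as block, low counts filtered by filterByExpr). Same-genotype sums of different classes come from the same embryos, so the library pairs them. Ratios of a mutant library to WT use genes with at least 50 UMIs over both libraries, and have no test. Shares used cells thinned to 3000 UMIs, with Clopper-Pearson intervals, and sums exact Poisson intervals; both cover counting error only. Background detection came from cells without a UMI of the 54 mitosis genes outside the list. Calculations used Python 3.11.15 with numpy 2.4.6, scipy 1.17.1 and pandas 2.3.3, and the test was tested on simulated data. The 36 genes, the other lists, the markers and the gates were chosen with earlier results of these data known. In each of 9 roles the 2 genes of highest mean CPM were described in full, with genes that differed from most of their role, and for each mutant library the 3 genes furthest above and below WT. Alternatives were DESeq2 1.42.0, other scalings (that by total UMIs was added after the data had been seen), no filter, no block, each library left out, other UMI limits, thinning before gating, other gates, other shares and a mean over cells.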

Additional observations from a re-analysis of the deposited data

Results flagged for a closer look

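Some summed ratios to WT lay on opposite sides of 1 in different classes, each with a 95% counting interval that leaves out 1. With 1 library per group the difference between classes was not tested. In the miR-128 mutant, the 36 mitosis genes stood at 1.17 times WT in myeloid cells (1.13 to 1.21) and at 0.805 times in ECs (0.798 to 0.813). The same held for 3 roles between myeloid cells and ECs. Chromosome structure genes stood at 1.18 times WT in myeloid cells and 0.820 times in ECs, spindle assembly genes at 1.22 and 0.792 times, and cyclin and CDK genes at 1.29 and 0.835 times. Kinetochore genes stood at 1.30 times WT in myeloid cells of the miR-128 mutant (1.15 to 1.46) and at 0.750 times in its haemogenic ECs (0.635 to 0.884, from 223 UMIs). Midzone and cytokinesis genes stood at 1.17 times in its myeloid cells (1.01 to 1.35) and at 0.764 times in its nHSPCs (0.671 to 0.869). In jag1b g3UTR, the anaphase promoting complex and checkpoint genes stood at 1.44 times WT in myeloid cells (1.31 to 1.57) and at 0.921 times in ECs (0.897 to 0.946). The myeloid side of each miR-128 mutant pair changed with the limit on UMIs per cell. With cells over 20000 UMIs left out, the 36 genes stood at 0.895 times WT in its myeloid cells, and with no upper limit at 0.982 times, so that the excess lay between 20000 and 35000 UMIs. At the limit of 20000 UMIs the myeloid ratios of the roles were 0.890 for chromosome structure, 0.562 for kinetochore, 0.990 for spindle assembly, 0.604 for midzone and cytokinesis and 0.737 for cyclin and CDK genes. The EC ratio of the jag1b g3UTR pair was 1.06 at that limit.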

How the results depend on the processing

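Of the calls in single mitosis genes, 24 of 35 in erythroid cells, 8 of 29 in myeloid cells, 6 of 16 in nHSPCs and 0 of 1 in haemogenic ECs were kept under all 14 alternatives. Where a count or value moved, the cause was not tested. Fewer libraries or cells give less power, and the part of this in the changes was not tested either. In nHSPCs the genes called higher numbered 4 without the filter on low counts, 2 with cells over 20000 UMIs left out and 11 with ptprc or ikzf1 asked for beside myb, in place of 7, and those called lower numbered 19 without the filter and 5 with thinning before gating, in place of 9. With no replicate block, which the shared embryos of a library make the less fitting design, 4 rose and 4 fell in nHSPCs, 0 rose in haemogenic ECs and 0 fell in myeloid cells. In haemogenic ECs, the count higher was 0 without the filter, at the limit of 20000 UMIs, thinned and with ptprc or ikzf1, and 2 with no upper limit, and the count lower was 1 without the filter, with no upper limit and with ptprc or ikzf1, and 7 when thinned. In erythroid cells 1 gene fell on total UMIs. In myeloid cells, 14 rose and 4 fell on total UMIs, 9 rose and 2 fell at the limit of 20000, 2 fell without the filter, and 0 fell with DESeq2 or thinned. Leaving out each library gave 6 to 9 higher and 8 to 10 lower in nHSPCs, 0 to 3 and 0 to 2 in haemogenic ECs, 32 to 35 and 0 in erythroid cells and 21 to 30 and 0 to 1 in myeloid cells.

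Summed ratios to WT in nHSPCs at the limit of 20000 UMIs, thinned before gating and with ptprc or ikzf1 were 0.965, 0.820 and 0.695 in the miR-128 mutant, 1.83, 1.36 and 1.17 in csnk1a1 g3UTR and 2.28, 1.64 and 1.37 in jag1b g3UTR. In ECs the limit gave 0.853, 1.29 and 1.58 in these libraries, and thinning 0.776 in the miR-128 mutant and 1.38 in jag1b g3UTR. Median-of-ratios scaling gave 1.19 and 1.31 in nHSPCs and 1.03 and 1.08 in ECs of csnk1a1 g3UTR and jag1b g3UTR. A mean over cells gave 0.811 in nHSPCs and 0.777 in ECs of the miR-128 mutant, 1.21 in nHSPCs of csnk1a1 g3UTR and 1.38 in ECs of jag1b g3UTR. The bub3 ratio turned to 0.950 in nHSPCs of the miR-128 mutant when thinned. At the limit of 20000 UMIs, kpna2 turned to 1.20 in nHSPCs and 1.05 in ECs of csnk1a1 g3UTR and ube2c to 1.08 in its ECs, and in jag1b g3UTR aurkb turned to 1.20 in nHSPCs and 1.02 in ECs, ube2c to 1.02 and cdk1 to 1.11 in ECs. The ratio of shares was 0.665 in nHSPCs of the miR-128 mutant at 8 genes or more. Without thinning it was 1.05 in ECs of csnk1a1 g3UTR, and 1.05 in nHSPCs and 1.01 in ECs of jag1b g3UTR, and at the limit of 20000 UMIs it was 2.31 and 1.38 in the last. Of the miR-128 mutant sums set out above in other classes, that of all 36 genes turned to 0.895 at the limit of 20000 UMIs and 0.982 with no upper limit in myeloid cells. At these settings the myeloid ratio of kinetochore genes turned to 0.562 and 0.947, of spindle assembly genes to 0.990 and 0.986 and of midzone and cytokinesis genes to 0.604 and 0.927. At the limit of 20000 it turned to 0.890 for chromosome structure and 0.737 for cyclin and CDK genes, and thinned to 0.846 for chromosome structure and 0.964 for spindle assembly genes. In haemogenic ECs thinning turned the ratio of all 36 genes to 1.82 and of kinetochore genes to 3.2. In jag1b g3UTR ECs the anaphase promoting complex and checkpoint genes turned to 1.06 at the limit of 20000 UMIs. Depth limits the rarest genes most, such as ect2, which had 5 UMIs in WT erythroid cells.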
